A study of Mus musculus with 13 samples.

Results

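The 10 genes described here make up the route by which a cell shows peptides from its own proteins on MHC class I, together with the inducible catalytic subunits of the proteasome. They were chosen by symbol: H2-K1, H2-D1, H2-T23, B2m, Tap1, Tap2, Tapbp, Psmb8, Psmb9 and Psmb10. They are 10 of 16593 genes named on the array and are read by 16 of its 25697 probes, of which 15 were detected on at least 1 array. All 10 are among the 10923 genes tested.

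In this pathway the proteasome cuts cytosolic proteins to peptides, and the immunoproteasome subunits Psmb8, Psmb9 and Psmb10 take the places of the constitutive subunits Psmb5, Psmb6 and Psmb7. The peptides enter the endoplasmic reticulum through a transporter made of Tap1 and Tap2, and tapasin, encoded by Tapbp, holds that transporter next to empty class I molecules. A loaded molecule consists of a heavy chain, the light chain B2m and the peptide, and T cells and natural killer cells read it at the cell surface. Interferon-gamma raises the pathway in many cell types, and neural cells of the healthy brain are known for low class I levels.

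The 13 samples were all from strain C3H and were hybridised to Illumina mouse bead arrays, which report 1 brightness value for each probe. The in vivo groups had 1 array each: iNSC in vivo, neural stem cells induced from fibroblasts and taken after transplantation into the adult mouse brain (the labels give 14, without a unit), and NSC in vivo, for which the labels state only that the neural stem cells were in vivo. Cultured cells comprised 3 clones of iNSC, neural stem cells induced from mouse embryonic fibroblasts, 3 clones of ESC NPC, neural progenitors derived from embryonic stem cells, and 3 clones of NSC, neural stem cells. Their sources or outside references, mouse embryonic fibroblasts (MEF) and embryonic stem cells (ESC), had 1 array each. The host strain and the way cells were recovered from the brain are not given in the labels, and nothing states that clones were grown and processed separately, so p-values measure the spread between these clones only.

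Of all probes, 26.2% and 26.7% were detected on the iNSC in vivo and NSC in vivo arrays, against 40.8% to 49.9% on the 11 cultured arrays, and the median raw signals were 80.1 and 79.3 against 101.7 to 116.9. On the in vivo arrays 3 of 7 neural stem cell markers were detected, Sox2 being undetected on both, while 11 (iNSC in vivo) and 10 (NSC in vivo) of 11 microglia and macrophage markers were. The summed intensity of the 7 neural stem cell markers was 15240 in iNSC in vivo, against 16390 to 20230 in iNSC. It was 15430 in NSC in vivo, against 18400 to 21510 in NSC. Such a sum follows its brightest gene, in culture Slc1a3 (mean log2 level 13.59 in iNSC and 13.84 in NSC). It does not show that the other markers were kept in vivo. Of the 7, 6 were lower in each in vivo sample than in culture of the same label. The median difference of the 7 was -3.13 (log2) in iNSC in vivo against iNSC and -3.67 in NSC in vivo against NSC. The summed intensity of those microglia markers was 28270 on the iNSC in vivo array and 11670 on the NSC in vivo array, against 44.7 to 1189 on cultured arrays. Lyz2, the lysozyme gene of macrophages and other myeloid cells, made up 53.2% and 30.1% of these in vivo sums, and without it they were 13240 and 8158. All 8 pluripotency markers were detected on each ESC NPC array, with a summed intensity of 6782 to 7055, against 11470 on the ESC array.

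Promoter sequences are shown first for the heavy chains, for B2m and for Psmb9, because they cover both chains of the class I molecule and the gene that moved furthest, and because class I promoters carry well-known control elements. Of the 10 genes, 9 have a promoter window in RefSeq (build GRCm38.p6), each running from 250 bases before the start of the gene to 50 bases after it. The reference is C57BL/6J, whereas the cells are C3H, whose class I alleles differ. Capitals mark 4 motifs searched on both strands: the kappaB site of the class I enhancer (the run of capitals that begins with G), AANNGAAA, a core of interferon regulatory factor sites, TGACG, found in X2 boxes and cyclic AMP response elements, and CCAAT, the Y box.

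The windows of the classical heavy chains (chr17:34000298-34000597, minus strand, and chr17:35262844-35263143, plus strand) hold all 4 motifs in the same order, and CCAAT once on each strand.
H2-K1: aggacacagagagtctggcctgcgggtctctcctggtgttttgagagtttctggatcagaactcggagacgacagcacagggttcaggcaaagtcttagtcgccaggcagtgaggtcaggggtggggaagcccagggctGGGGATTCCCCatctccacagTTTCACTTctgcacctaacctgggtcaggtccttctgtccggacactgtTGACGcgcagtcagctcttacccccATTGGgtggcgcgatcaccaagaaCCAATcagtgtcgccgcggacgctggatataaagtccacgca
H2-D1: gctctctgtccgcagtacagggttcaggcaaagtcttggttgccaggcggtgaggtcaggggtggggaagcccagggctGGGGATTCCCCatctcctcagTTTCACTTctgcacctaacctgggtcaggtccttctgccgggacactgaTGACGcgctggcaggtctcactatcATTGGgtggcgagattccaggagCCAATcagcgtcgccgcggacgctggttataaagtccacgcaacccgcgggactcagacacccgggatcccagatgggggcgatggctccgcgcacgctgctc

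The H2-T23 window (chr17:36032652-36032951, minus strand) holds 2 matches to AANNGAAA and 1 CCAAT, and the B2m window (chr2:122147437-122147736, plus strand) holds 1 AANNGAAA, 2 TGACG and 1 CCAAT.
H2-T23: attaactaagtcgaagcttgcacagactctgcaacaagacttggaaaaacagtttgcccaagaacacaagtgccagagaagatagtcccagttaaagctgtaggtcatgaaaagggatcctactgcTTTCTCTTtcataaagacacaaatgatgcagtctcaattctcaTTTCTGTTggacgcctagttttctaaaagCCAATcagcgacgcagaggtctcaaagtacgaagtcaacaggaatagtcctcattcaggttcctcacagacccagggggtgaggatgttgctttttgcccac
B2m: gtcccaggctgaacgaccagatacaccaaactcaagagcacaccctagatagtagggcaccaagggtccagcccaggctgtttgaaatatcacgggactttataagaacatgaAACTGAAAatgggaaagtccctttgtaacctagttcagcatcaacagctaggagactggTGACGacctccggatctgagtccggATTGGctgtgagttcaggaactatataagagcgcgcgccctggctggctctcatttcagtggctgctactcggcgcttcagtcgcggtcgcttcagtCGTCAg

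The Psmb9 window (chr17:34187281-34187580, minus strand) shares 275 of its 300 bases with that of Tap1, which is transcribed away from it on the other strand, and holds 1 TGACG and 1 CCAAT.
Psmb9: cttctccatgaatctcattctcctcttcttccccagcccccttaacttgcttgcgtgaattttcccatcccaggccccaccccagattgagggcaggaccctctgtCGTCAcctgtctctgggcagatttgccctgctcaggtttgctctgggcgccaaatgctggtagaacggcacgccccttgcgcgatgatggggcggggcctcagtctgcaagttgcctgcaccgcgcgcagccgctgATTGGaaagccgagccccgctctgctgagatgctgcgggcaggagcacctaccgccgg

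Over all 32851 promoter windows of this length, the kappaB site stood in 0.0304% (10 windows, among them H2-K1 and H2-D1), AANNGAAA in 23.9%, TGACG in 20.8% and CCAAT in 37.4%. Among the 9 windows of these genes, 2, 4, 5 and 7 held them, in the same order. The TGACG and the CCAAT of Psmb9 and Tap1 are the same sites in their shared bases, counted in both windows. A match is a run of letters in this window and was not tested for function. In RefSeq's gene order Psmb9, Tap1, Psmb8 and Tap2 lie next to one another on chromosome 17 with no other gene between them. Chromosome 17 also carries H2-K1, H2-D1, H2-T23 and Tapbp, while B2m is on chromosome 2 and Psmb10 on chromosome 8.

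Levels below are log2 normalized intensities, and a probe was called detected where the deposited detection p was under 0.01. The heavy-chain genes are close copies of one another, so a probe for one may also bind another, and binding of C3H alleles by the probes was not tested. In bulk RNA, fewer cells of a type and less RNA per cell cannot be told apart. Statements that arrays or groups do not overlap describe the levels printed. The share of all genes without overlap was not counted, so they carry no weight beyond the test.

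**Figure D1:**
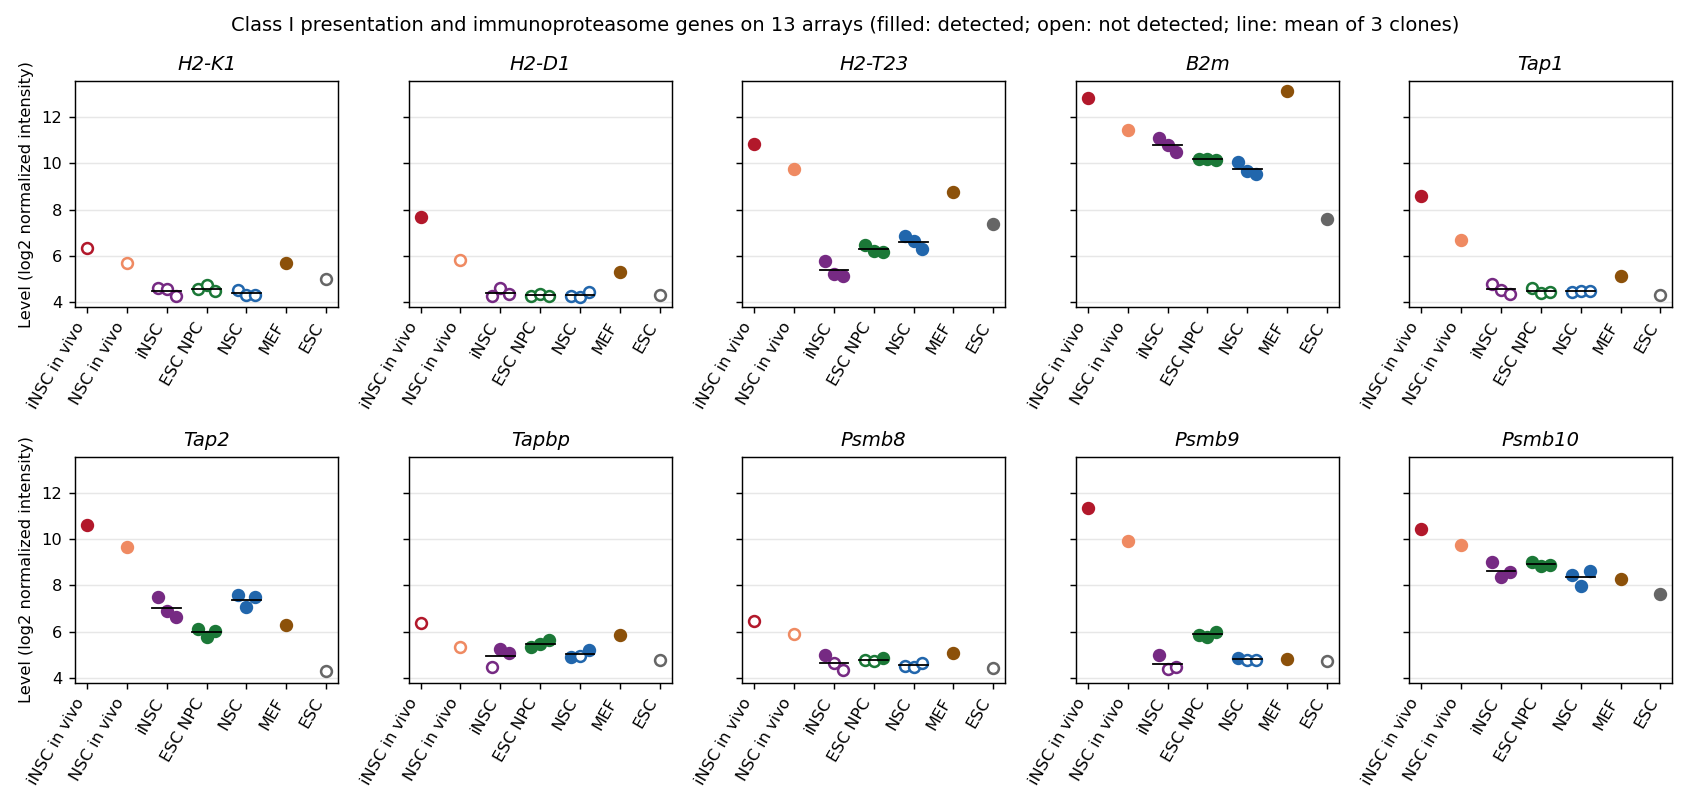
Level (log2 normalized intensity, vertical axis) of the 10 genes on each of the 13 arrays, by group. Filled points are detected, open points are not, and lines are means of 3 clones. Psmb9, Tap2 and H2-T23 are higher on both in vivo arrays than on all 11 cultured arrays, whereas open points fill the H2-K1 panel except for MEF.

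The first question is how the in vivo samples compared with cultured cells of the same label, although the marker genes given above differ between them. In iNSC in vivo against cultured iNSC, all 10 genes were higher at an adjusted p under 0.05 (limma over all genes, Benjamini-Hochberg), where 67.9% of all genes passed in either direction, 33.6% higher and 34.3% lower. Of these, 7 were detected in vivo: H2-D1, H2-T23, B2m, Tap1, Tap2, Psmb9 and Psmb10. The median difference of the 10 genes was 2.66 (log2), against -0.03 for all genes. Each in vivo group is a single array, so its spread was assumed to equal that between clones.

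Psmb9, the immunoproteasome subunit that replaces Psmb6, moved furthest. Its level was 11.34 on the iNSC in vivo array, against 4.97, 4.36 and 4.46 in the 3 iNSC clones, of which 1 was detected. The difference was 6.74 ± 0.21 (log2, SE), with an adjusted p of 6.29e-09 by limma, and its size rests in part on the 2 clones under the detection limit.

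H2-T23 encodes Qa-1, a non-classical heavy chain read by the inhibitory receptor CD94/NKG2A of natural killer cells. It stood at 10.84 on the iNSC in vivo array, against 5.78, 5.21 and 5.14 in iNSC. The difference was 5.46 ± 0.28 (log2, SE; limma adjusted p = 1.63e-07), and its other probe gave 6.26.

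Both subunits of the peptide transporter rose as well. Tap1 was at 8.60 on the iNSC in vivo array and was undetected in all 3 iNSC clones (4.78, 4.53 and 4.35), which makes it at least 12.5-fold higher (adjusted p = 3.55e-08 by limma). Such bounds set the bright group against the lowest detected level of each dim array after quantile normalization. They need not hold under other scalings, where the Tap1 difference was 2.47 (log2, median scaling) and 2.21 (no scaling). Tap2 was at 10.62 on the iNSC in vivo array, against 7.51, 6.90 and 6.62 in iNSC, a difference of 3.61 ± 0.32 (log2, SE).

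H2-D1, a classical heavy chain, was detected on the iNSC in vivo array at 7.68 and on none of the iNSC arrays (4.26, 4.59 and 4.33). It was at least 6.64-fold higher after quantile normalization, and its difference was 1.70 (log2) with median scaling and 1.43 with no scaling. H2-K1, the other classical heavy chain, was undetected on all 4 arrays, so no fold is given. The light chain B2m was at 12.85 on the iNSC in vivo array, against 11.11, 10.78 and 10.52 in iNSC, a difference of 2.04 ± 0.24 (log2, SE), without overlap.

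Psmb10, which replaces Psmb7, was at 10.44 on the iNSC in vivo array, against 9.0, 8.35 and 8.56 in iNSC, a difference of 1.80 ± 0.28 (log2, SE). Psmb8, which replaces Psmb5, and Tapbp passed the test but were undetected on the iNSC in vivo array, with levels of 6.46 and 6.39. The lowest detected levels were 6.63 on that array and 6.56 on the NSC in vivo array, against 4.60 to 5.08 on the cultured arrays, so a level that counts as detected in culture can lie under the detection limit in vivo. The second Tapbp probe was detected on the iNSC in vivo array at 6.84, against 4.91, 5.27 and 4.53 in iNSC, where 2 of the 3 were detected.

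In NSC in vivo against cultured NSC, 9 of the 10 genes were higher and none was lower, where 67.8% of all genes passed in either direction, 33.8% higher and 34% lower. Of these, 6 were detected in vivo: H2-T23, B2m, Tap1, Tap2, Psmb9 and Psmb10. The other 3, H2-K1, H2-D1 and Psmb8, were undetected on all 4 arrays. Tapbp, at 5.31 and undetected on the NSC in vivo array, did not pass (0.30 ± 0.28, log2, SE; limma adjusted p = 0.371), while its second probe, also undetected there, gave 1.74. The median difference of the 10 genes was 1.60 (log2), against -0.04 for all genes.

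Psmb9 again led, at 9.94 on the NSC in vivo array, against 4.87, 4.75 and 4.79 in NSC, of which 1 was detected. Its difference was 5.13 ± 0.21 (log2, SE; limma adjusted p = 4.09e-08), with the same limit. H2-T23 was at 9.77 on the NSC in vivo array, against 6.85, 6.64 and 6.27 in NSC, a difference of 3.18 ± 0.28 (log2, SE). Neither gene overlapped its cultured clones, which with 1 array against 3 adds no test of its own.

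Tap1, at 6.70 on the NSC in vivo array and undetected in all 3 NSC clones (4.42, 4.48 and 4.49), was at least 3.46-fold higher after quantile normalization. Its difference was 0.86 (log2) with median scaling and 0.51 with no scaling. Before background correction its raw signal was 94.1 on the NSC in vivo array, against 102.3 to 104.6 in NSC. Tap2 was at 9.67 on the NSC in vivo array, against 7.59, 7.05 and 7.51 in NSC, a difference of 2.29 ± 0.32 (log2, SE). B2m was at 11.47 on the NSC in vivo array, against 10.07, 9.66 and 9.56 in NSC, a difference of 1.71 ± 0.24 (log2, SE). For Psmb10 the levels were 9.76 on the NSC in vivo array, against 8.45, 7.98 and 8.62 in NSC, a difference of 1.41 ± 0.28 (log2, SE).

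How much of these differences remains depends on how the dim in vivo arrays are scaled to the others. Quantile normalization gives every array the same distribution. With median scaling, 7 genes were higher in iNSC in vivo and 5 in NSC in vivo. With no scaling between arrays, 5 were higher in iNSC in vivo (H2-D1, H2-T23, Tap1, Tap2 and Psmb9), and in NSC in vivo 3 were higher (H2-T23, Tap1 and Psmb9) and 2 lower (Tapbp and Psmb10). Under those scalings the median of all genes was at -0.79 and -1.06 (log2) in iNSC in vivo against iNSC and at -0.87 and -1.23 in NSC in vivo against NSC. The share of called genes that were higher was 49.4% (iNSC in vivo) and 49.8% (NSC in vivo) after quantile normalization, 21% and 21.7% after median scaling, and 15.4% and 14.1% with no scaling.

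Raw bead signals show the same dependence. For Psmb9 they were 1061 on the iNSC in vivo array, against 96.3 to 113.5 in iNSC, and 363.8 on the NSC in vivo array, against 109.6 to 115.2 in NSC. For B2m they were 2779 on the iNSC in vivo array, against 1932 to 2699 in iNSC, and 1025 on the NSC in vivo array, against 1036 to 1516 in NSC. Psmb9 was thus brighter in both in vivo samples before any scaling, and B2m was slightly brighter in iNSC in vivo and slightly dimmer in NSC in vivo.

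**Figure D2:**
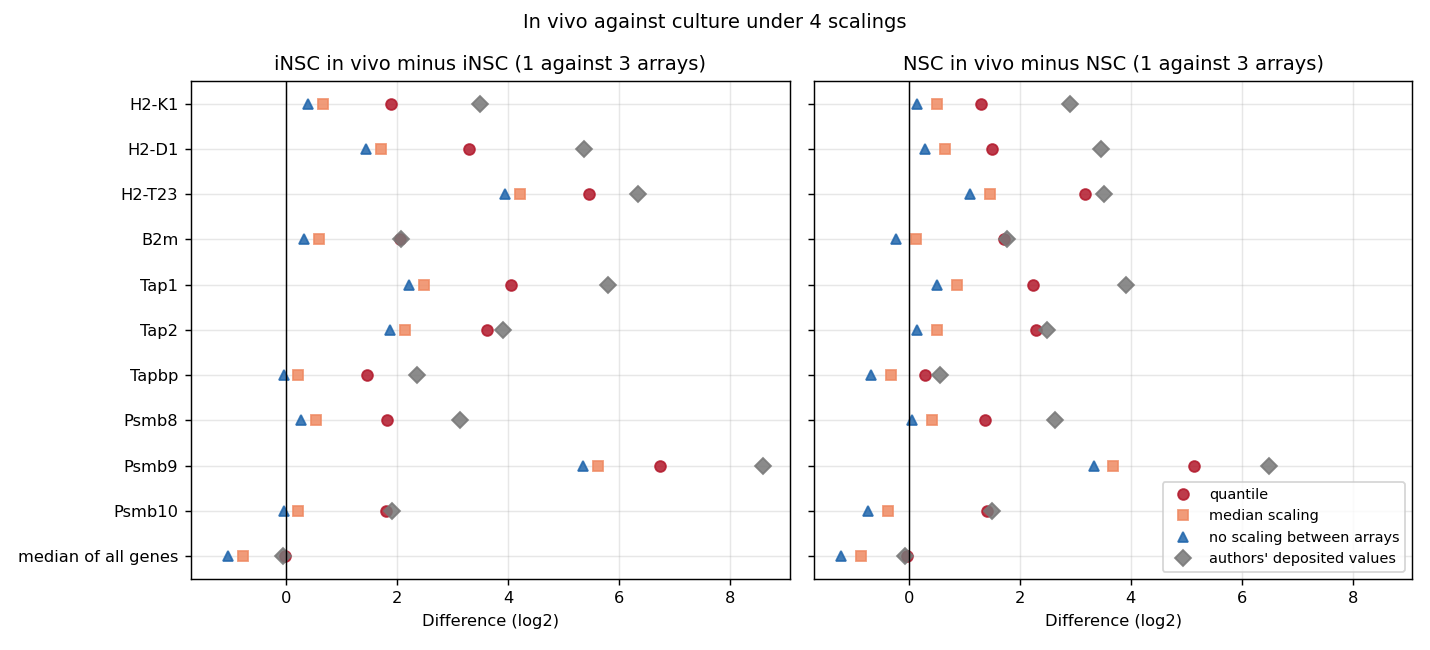
Difference (log2, horizontal axis) between each in vivo array and the 3 cultured clones of the same label for the 10 genes and for the median of all genes, under 4 scalings. Psmb9 and H2-T23 stay above 0 under each scaling, whereas B2m, Tapbp and Psmb10 in NSC in vivo lie at -0.24, -0.68 and -0.74 with no scaling between arrays.

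Whether iNSC in vivo and NSC in vivo moved by different amounts from their own cultures was tested as an interaction. Of the 10 genes, 4 rose more in iNSC in vivo and none rose less, where 27.6% of all genes passed in either direction, 13.3% with a larger and 14.2% with a smaller value in iNSC in vivo. These were H2-T23 (2.29 ± 0.40, log2, SE; limma adjusted p = 0.0028), Tap1 (1.80 ± 0.24, adjusted p = 0.000503), H2-D1 (1.79 ± 0.23, adjusted p = 0.00039) and Psmb9 (1.61 ± 0.30, adjusted p = 0.00398). H2-T23 alone of the 4 was detected on all 8 arrays. Its value takes in a lower level in cultured iNSC than in cultured NSC (-1.21, log2), while the in vivo arrays differed by 1.07. H2-D1 was undetected in NSC in vivo, iNSC and NSC, Tap1 in all 3 clones of iNSC and of NSC, and Psmb9 in 2 of 3 clones of each, so the sizes for these genes rest in part on levels under the detection limit. Each of the 4 also passed with median scaling and with no scaling, and with the authors' deposited values H2-T23 alone did.

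Set directly side by side, the 6 genes detected on both in vivo arrays each had a higher level on the iNSC in vivo array than on the NSC in vivo array, by 0.68 (Psmb10) to 1.90 (Tap1) on the log2 scale. H2-D1 was detected on the iNSC in vivo array alone, and H2-K1, Tapbp and Psmb8 on neither. The median difference over all 10, undetected levels included, was 1.08 (log2), against -0.01 for all genes, of which 48.5% were higher on the iNSC in vivo array. With 1 array in each group there is no test of this.

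The constitutive partners of the immunoproteasome subunits went the other way: 3 of 3 were lower in both in vivo samples, where 34.3% and 34% of all genes were. They were lower with median scaling and with no scaling too, but most genes were called lower there. With median scaling 5800 (iNSC in vivo) and 5921 (NSC in vivo) of 10923 genes were called lower. With no scaling these were 6409 and 6796. Psmb7 was lower by a fold of 15.3 in iNSC in vivo and of 23.8 in NSC in vivo, and Psmb6 by a fold of 2.29 and of 4.75. On both in vivo arrays Psmb7 lay near the lowest detected level (6.63 and 6.56). Its folds are therefore not exact and hold for quantile normalization. Of 5 activator and assembly genes, Psme1, a subunit of the PA28 activator, chosen for its direction after its values were seen, was higher (2.94 ± 0.18 and 1.61 ± 0.18, log2, SE, in iNSC in vivo and NSC in vivo) and the other 4 were lower. The rise of Psme1 in NSC in vivo did not pass with median scaling or with no scaling. Among the lower ones, Pomp, which assists proteasome assembly, differed by -3.39 and -3.84 (log2).

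**Figure D3:**
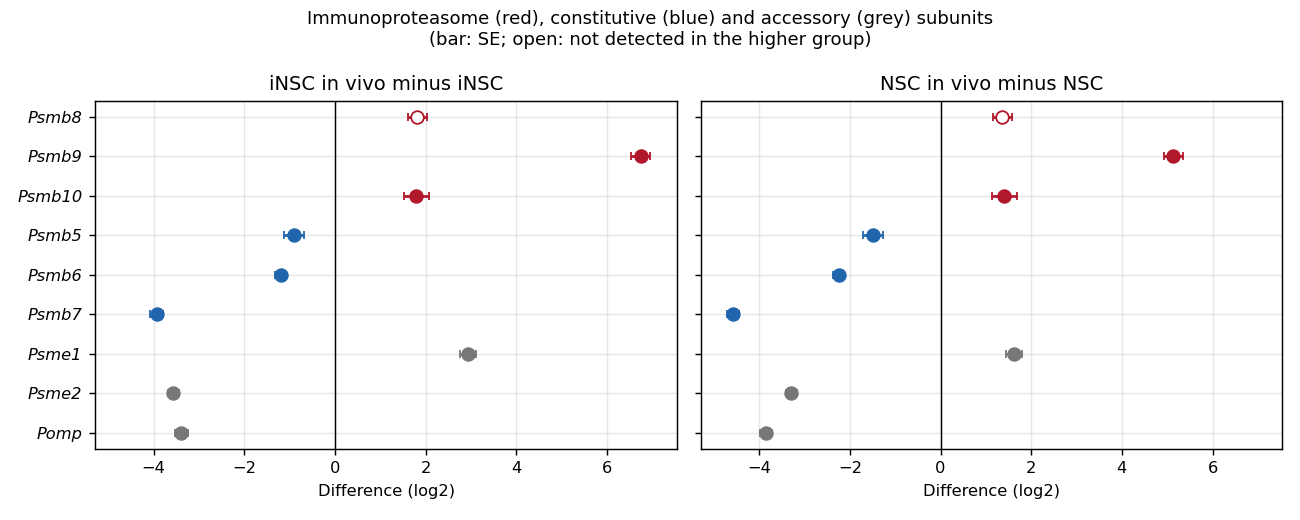
Difference (log2, horizontal axis, with SE bars) of immunoproteasome, constitutive and accessory proteasome genes in iNSC in vivo minus iNSC and in NSC in vivo minus NSC. Psmb9 lies at 6.74 and 5.13 and Psmb7 at -3.94 and -4.57, while the open points of Psmb8 were not detected in vivo.

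In iNSC in vivo 33.6% of all genes were higher and 34.3% lower, and in NSC in vivo 33.8% and 34%. Beside these shares, other class I genes followed in part. Of 12 tested, 7 were higher and 1 lower in iNSC in vivo (median 1.22, log2, against -0.03 for all genes), and 7 were higher and 2 lower in NSC in vivo (median 0.97, against -0.04). With no scaling the counts were 4 higher and 2 lower in iNSC in vivo, and 3 higher and 2 lower in NSC in vivo. The non-classical H2-Q7 was at least 20.3-fold higher in iNSC in vivo and 8.27-fold higher in NSC in vivo. Among 7 genes of peptide loading and trimming, 2 were higher and 4 lower in each in vivo sample. With no scaling, where most genes were called lower, 6 of the 7 were lower. The lower ones included Pdia3, a disulfide isomerase of the loading complex (-2.55 and -3.45, log2), and Calr, the chaperone calreticulin, at least 2.63-fold and 3.50-fold lower.

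The counts here stand beside the same shares of all genes, 33.6% and 33.8% higher and 34.3% and 34% lower in iNSC in vivo and NSC in vivo. Interferon-induced genes were higher together with the 10 genes. Of 16 tested, 15 were higher in iNSC in vivo (median 4.29, log2) and 14 in NSC in vivo (median 3.40), and 12 and 8 with no scaling, with none lower. Ifi47, an interferon-induced GTPase, was at least 106.6-fold and 27.6-fold higher in iNSC in vivo and NSC in vivo. Ifng, the gene of interferon-gamma itself, was detected on both in vivo arrays and was at least 32.0-fold and 5.63-fold higher. Of 21 regulators, 14 were higher and 2 lower in iNSC in vivo, and 13 higher and 5 lower in NSC in vivo. With no scaling lower calls outnumbered higher ones (7 higher and 9 lower, and 5 higher and 10 lower), as they did over all genes. Nlrc5, the transactivator of class I genes, was at least 29.3-fold and 9.47-fold higher.

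Markers of immune and vessel cells moved with these results. All 11 microglia and macrophage markers and all 7 class II genes were higher in both in vivo samples, and with no scaling too. In iNSC in vivo and NSC in vivo, 33.6% and 33.8% of all genes were higher, and 34.3% and 34% were lower. On cultured arrays 0 to 2 of the 7 class II genes were detected. Several microglia markers, such as Cx3cr1, P2ry12 and C1qa, were detected in vivo alone, as were Nkg7 and the erythrocyte markers. Genes like these passed the detection filter through the in vivo arrays, which largely fixed their direction in advance. The T and natural killer cell markers Cd3e and Nkg7 were at 9.16 and 9.34 on the iNSC in vivo array and at 7.51 and 7.48 on the NSC in vivo array, with a summed intensity of 1188 and 329, against 5.77 to 29.5 on cultured arrays. Of the 10 genes in that list 8 had a probe, and those besides Cd3e and Nkg7 were detected on no array, in vivo included. Endothelial markers had a summed intensity of 4445 on the iNSC in vivo array and 22700 on the NSC in vivo array, against 39.95 to 488 on cultured arrays. Of the other lists, 3 and 3 of 4 oligodendrocyte, 4 and 3 of 5 neuron, 6 and 5 of 7 fibroblast and 2 and 2 of 2 erythrocyte markers were higher in iNSC in vivo and NSC in vivo, and 6 and 6 of 7 neural stem cell markers were lower. The summed intensities of the 10 genes and of the class II, microglia and T cell markers were larger in iNSC in vivo than in NSC in vivo, and that of endothelial markers was smaller. Of the 11 microglia markers 9 had a higher level in iNSC in vivo, Cx3cr1 by little (8.26 against 8.23, log2), while P2ry12 (8.80 against 10.28) and Tmem119 (9.59 against 10.81), which mark resident microglia, were lower. The part of these other cells in the levels of the 10 genes was not tested.

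**Figure D4:**
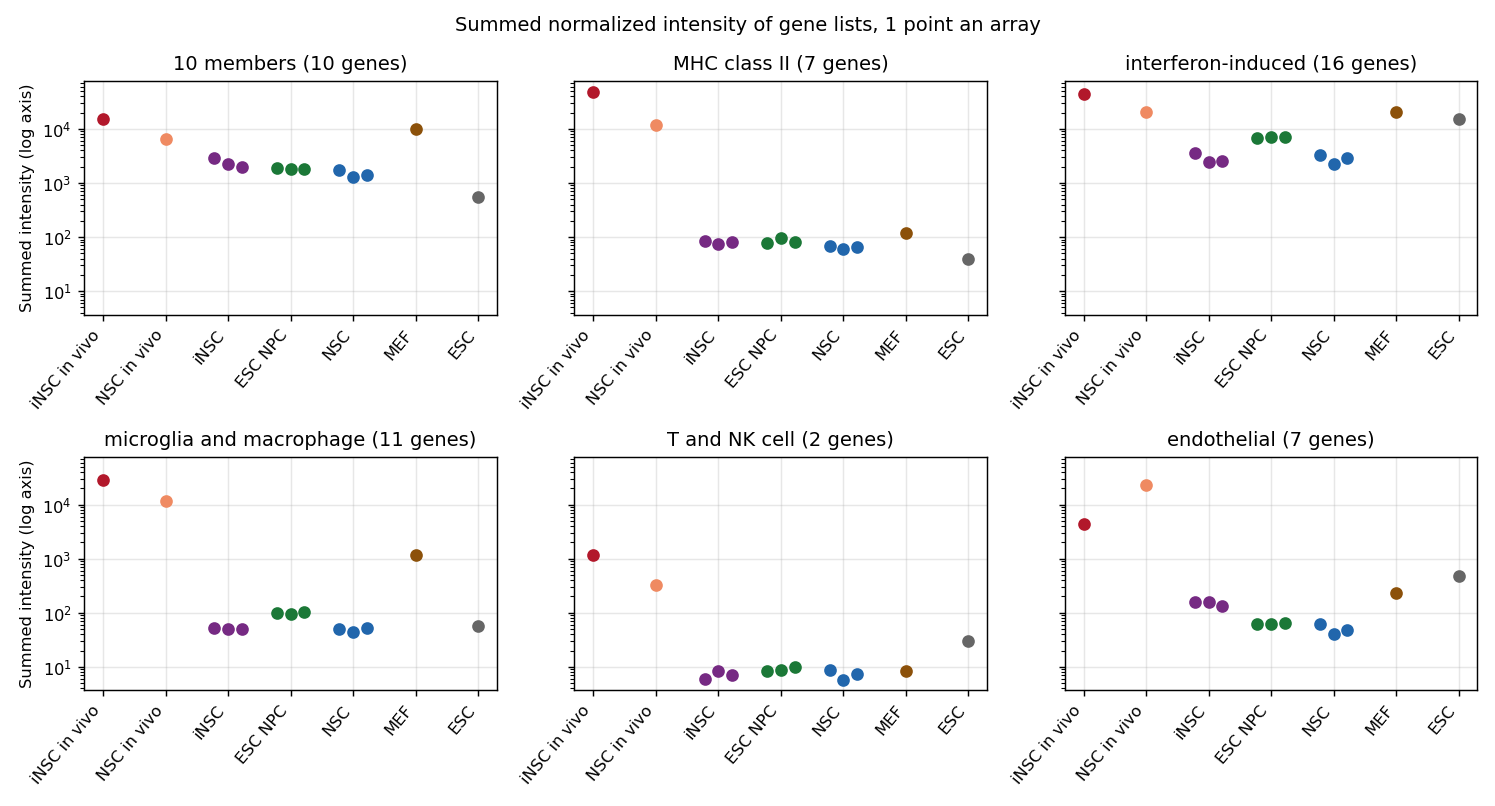
Summed normalized intensity (log axis) of the 10 genes and of 5 gene lists, 1 point an array. The sums on the iNSC in vivo and NSC in vivo arrays are 15440 and 6522 for the 10 genes and 28270 and 11670 for microglia and macrophage markers, and the MEF array is the highest of the cultured ones in both lists.

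In culture the 10 genes were mostly low. H2-K1, H2-D1 and Tap1 were undetected on all 9 arrays of iNSC, ESC NPC and NSC. B2m and Psmb10 were detected on every array. The next comparisons ask how the neural cells of different origin differ from one another and from the cells they were made from.

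In iNSC against NSC, 2 of 10 genes passed, 1 in each direction, where 19.5% of all genes did, 10.2% higher and 9.37% lower. B2m was at 11.11, 10.78 and 10.52 in iNSC, against 10.07, 9.66 and 9.56 in NSC. The groups did not overlap, and the difference was 1.04 ± 0.17 (log2, SE; limma adjusted p = 0.00248), with 1.00 on a second probe.

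H2-T23 went the other way, at 5.78, 5.21 and 5.14 in iNSC, against 6.85, 6.64 and 6.27 in NSC. Again the groups did not overlap, and the difference was -1.21 ± 0.20 (log2, SE; limma adjusted p = 0.00274), with -1.51 on its other probe. Thus the light chain was higher and the non-classical heavy chain lower in iNSC. The other 8 genes differed by -0.37 to 0.29 (log2) and did not pass.

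In ESC NPC against NSC, 3 of 10 passed, 2 higher and 1 lower, where 57.3% of all genes did, 27.7% higher and 29.6% lower. Tap2 was at 6.10, 5.77 and 6.01 in ESC NPC, against 7.59, 7.05 and 7.51 in NSC, a difference of -1.42 ± 0.23 (log2, SE; limma adjusted p = 0.000566). H2-T23 did not pass on its brighter probe (-0.29, adjusted p = 0.249) and was lower on the other (-2.38, adjusted p = 2.28e-05), which was undetected in ESC NPC. Psmb9 was at 5.87, 5.78 and 5.99 in ESC NPC and detected in all 3, against 4.87, 4.75 and 4.79 in NSC, where 1 of 3 was detected, a difference of 1.08 ± 0.15 (log2, SE; limma adjusted p = 0.000243). Tap2 and Psmb9 did not overlap between the groups. Psmb10 was higher by 0.57 ± 0.20 (log2, SE; limma adjusted p = 0.0334), while its second probe, detected on all 13 arrays, did not pass (0.21, adjusted p = 0.44). That call was lost without any 1 of NSC clone 1, NSC clone 2 or the 3 ESC NPC clones (adjusted p 0.0537 to 0.106), and the difference was -0.06 with no scaling.

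In iNSC against ESC NPC, 5 of 10 passed, 2 higher and 3 lower, where 60.3% of all genes did, 31.5% higher and 28.8% lower. B2m (0.62 ± 0.17, log2, SE) and Tap2 (1.05 ± 0.23) were higher in iNSC. Psmb9, at 4.97, 4.36 and 4.46 in iNSC, against 5.87, 5.78 and 5.99 in ESC NPC, was lower by -1.29 ± 0.15 (log2, SE; limma adjusted p = 6.89e-05). Tapbp was lower by -0.54 ± 0.19 (limma adjusted p = 0.0366), a call lost without iNSC clone 1, ESC NPC clone 2 or ESC NPC clone 3 (adjusted p 0.0807 to 0.12), and its second probe gave 0.14 (adjusted p = 0.547).

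The probes for H2-T23 disagreed in this comparison. The brighter probe was lower in iNSC (-0.92 ± 0.20, log2, SE; limma adjusted p = 0.00327) and the other was higher (0.87 ± 0.23; adjusted p = 0.00968). On the brighter probe ESC NPC clones were at 6.49, 6.23 and 6.17 and the ESC array at 7.38, all detected. On the other they were at 4.21, 4.36 and 4.18 and at 4.20, all undetected. The direction of H2-T23 between iNSC and ESC NPC therefore cannot be stated.

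**Figure D5:**
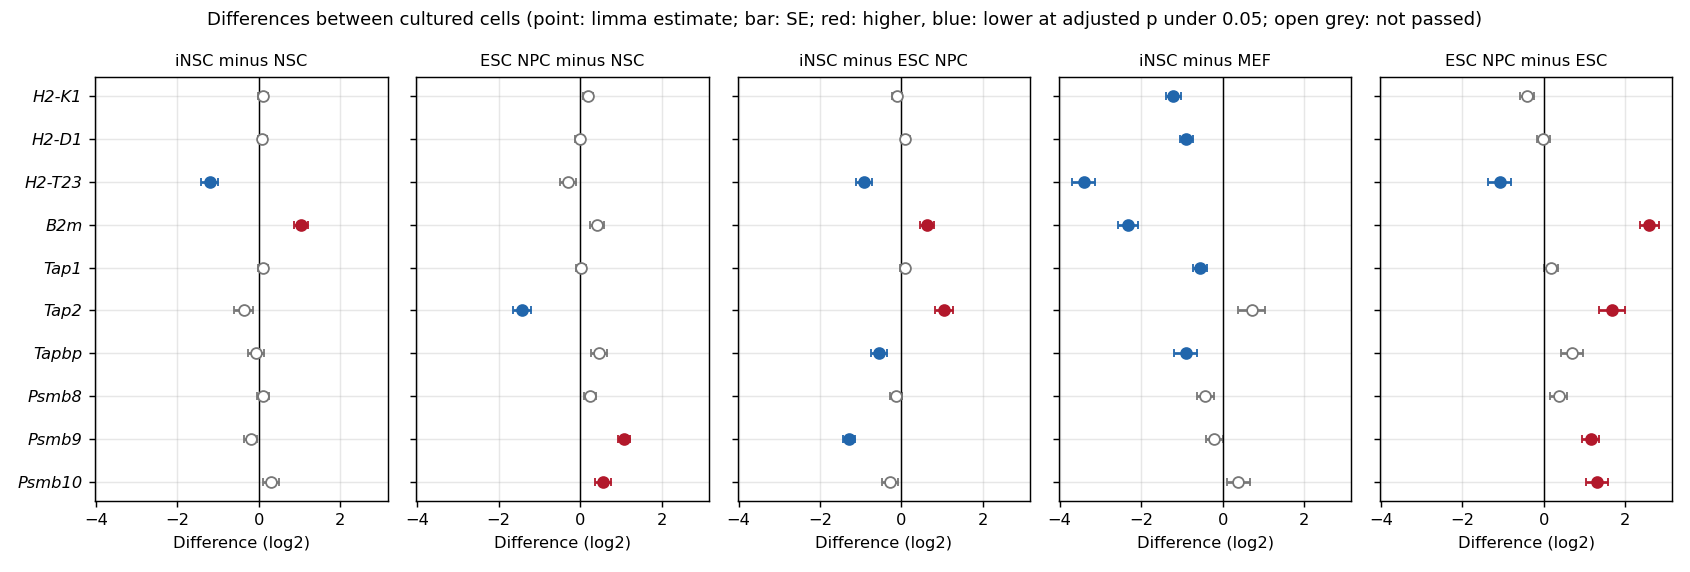
Difference (log2, horizontal axis, with SE bars) of the 10 genes in 5 comparisons of cultured cells. B2m is higher in iNSC than in NSC and ESC NPC (1.04 and 0.62) and lower than in MEF (-2.32), and the brighter H2-T23 probe is lower in each iNSC comparison shown, while its other probe is higher in iNSC than in ESC NPC.

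In iNSC against MEF, the cells they were induced from, 6 of 10 genes were lower and none higher, where 49.8% of all genes passed in either direction, 27.9% higher and 21.9% lower. H2-T23 was at 5.78, 5.21 and 5.14 in iNSC, against 8.79 in MEF, a difference of -3.41 ± 0.28 (log2, SE; limma adjusted p = 1.18e-05). B2m was at 11.11, 10.78 and 10.52 in iNSC, against 13.13 in MEF, the highest B2m level of all arrays, a difference of -2.32 ± 0.24 (limma adjusted p = 4.63e-05). The other H2-T23 probe was lower too (-1.67).

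The classical heavy chains and Tap1 were detected in MEF (5.69 for H2-K1, 5.29 for H2-D1 and 5.11 for Tap1) and in no iNSC clone. They were at least 1.67-fold, 1.26-fold and 1.12-fold lower in iNSC, and the second H2-K1 probe, at 7.02 in MEF, was at least 4.21-fold lower. MEF was the only group of the 7 in which H2-K1 was detected, on both of its probes, and all 10 genes were detected there. H2-K1, 1 of the 6 lower genes, thus passed the detection filter through the MEF array alone, which largely fixed its direction here in advance. Tapbp was lower by -0.91 ± 0.27 (log2, SE; limma adjusted p = 0.0215), and Tap2, Psmb8, Psmb9 and Psmb10 did not pass (0.71, -0.43, -0.21 and 0.38, log2). On the MEF array 7 of 11 microglia and macrophage markers were detected, with a summed intensity of 1189, against 49.3 to 53.1 and none detected in iNSC. Of those 11, 5 were lower in iNSC, and 7 of 16 interferon-induced genes were lower and 2 higher. Their part in the result was not tested.

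In ESC NPC against ESC, the cells they were derived from, 5 of 10 genes passed, 4 higher and 1 lower, where 44.5% of all genes did, 22.1% higher and 22.5% lower. B2m was at 10.20, 10.18 and 10.16 in ESC NPC, against 7.59 in ESC, the lowest B2m level of all arrays, a difference of 2.59 ± 0.24 (log2, SE; limma adjusted p = 3.07e-05). Psmb10 was at 9.02, 8.85 and 8.88 in ESC NPC, against 7.61 in ESC, a difference of 1.31 ± 0.28 (limma adjusted p = 0.00415). Both were well separated from the single ESC array.

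Tap2 and Psmb9 were undetected in ESC and detected in all 3 ESC NPC clones, at least 1.88-fold and 1.78-fold higher. H2-T23 was lower (-1.09 ± 0.28, log2, SE; limma adjusted p = 0.0125) on its brighter probe and undetected on both sides with the other, so that its direction cannot be stated here either. Of 3 constitutive subunits, Psmb6 and Psmb7 were higher and Psmb5 lower (0.45, 0.39 and -1.03, log2), and the first pair did not pass with median scaling or with no scaling.

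Ordered by level, B2m ran from MEF (13.13) through iNSC in vivo (12.85), NSC in vivo (11.47), iNSC (10.80 ± 0.30, SD, n = 3), ESC NPC (10.18 ± 0.02) and NSC (9.76 ± 0.27) to ESC (7.59). Of the neighbours among the clones, iNSC and ESC NPC differed by the test and ESC NPC and NSC did not (0.42 ± 0.17, log2, SE; limma adjusted p = 0.0617). Psmb9 ran from iNSC in vivo (11.34) and NSC in vivo (9.94) to ESC NPC (5.88 ± 0.11) and then to NSC (4.80 ± 0.06), MEF (4.80), ESC (4.73) and iNSC (4.60 ± 0.32), which lay within 0.21 of each other. The 2 genes thus had different orders in culture, B2m being lowest in ESC and Psmb9 having its highest cultured level in ESC NPC.

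The genes most like the 10 in pattern were found by Pearson correlation with the mean of their standardized levels over 13 arrays, which share scaling and detection limits. They were Usp18 (r = 0.985), an interferon-induced protease of ISG15, Fgl2 (0.984), Tnfsf13b (0.981), the B-cell survival factor BAFF, Cxcl16 (0.980), a chemokine, and Ms4a6d (0.979). Usp18 was detected on 12 arrays and had r = 0.940 over the 11 cultured arrays alone. The other 4 were detected on 2 to 4 of the 13 arrays, and no r over the cultured arrays alone is given for them.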

How the data were processed

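Raw bead signals (intensity) and a detection p-value for each probe and array were deposited by the authors, with a table of normalized values that are log2 as judged from the values. The submitters' processing notes name BeadStudio 3.2, RMA and lumi, without role or order. The steps applied here were normexp background correction by detection p with an offset of 16, quantile normalization and log2. Of 25697 probes, 23978 had 1 gene symbol and 1719 are unnamed here. Probes with detection p under 0.01 on at least 1 array were kept, 1 for each gene (highest mean), giving 10923 genes.

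One limma 3.58.1 model (R 4.3.3) of 7 groups on 13 arrays left 6 residual degrees of freedom, to which the prior added 3.03. P-values, two-sided, were adjusted by Benjamini-Hochberg over every gene tested, with 0.05 as the threshold. The fit was tested on simulated data in which each gene had the same spread on every array. That does not test whether a lone array varies like the clones, or how arrays are scaled. The number of arrays limits the precision.

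The 10 genes, the gene lists and the tests were chosen with earlier results of these data known. All 10 genes were tested in each comparison, and those that passed are named. Genes of the lists were named by smallest p, up to 4 a list. Psme1 and some cell markers were instead named after their values were seen. The 5 most similar genes were named by correlation. Clone numbers come from the labels. Same-numbered iNSC and NSC clones deviated together (r = 0.209 to 0.503 over genes), against -0.403 to 0.236 for pairs of different number. Same-numbered ESC NPC and NSC clones did not (-0.041 to -0.009). For iNSC and ESC NPC the same-numbered pairs gave 0.034 to 0.111, against -0.103 to 0.058 for the others. Alternatives were median scaling, the deposited values, no background correction, other filters and probe rules, a trended robust prior, the 2 groups alone, a replicate block, leaving out each clone and leaving out the in vivo arrays. No scaling between arrays was added after seeing the data.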

Additional observations from a re-analysis of the deposited data

Results flagged for a closer look

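The rise over culture differed between the 2 in vivo samples by an interaction test for 4 genes. Each rose more in iNSC in vivo over iNSC than in NSC in vivo over NSC. The difference of the 2 rises was 1.79 (log2) for H2-D1, 2.29 for H2-T23, 1.80 for Tap1 and 1.61 for Psmb9. Each in vivo group is 1 array. The label of iNSC in vivo alone states transplantation. The summed intensities of microglia markers (28270 in iNSC in vivo against 11670 in NSC in vivo) and endothelial markers (4445 against 22700) differed too. Cell origin, transplantation and other cells therefore cannot be told apart here. H2-D1 was undetected in NSC in vivo, iNSC and NSC, Tap1 in all clones of iNSC and NSC, and Psmb9 in 2 of 3 clones of each, so that for these genes the values rest in part on levels under the detection limit and their sizes are not exact. H2-T23 was detected on all 8 arrays of this comparison. Its value takes in a lower level in cultured iNSC than in cultured NSC (-1.21, log2), while the in vivo arrays differed by 1.07.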

How the results depend on the processing

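Counts of the 10 genes called moved by over 1.5 times in 6 places. In NSC in vivo against NSC, 5 were called with median scaling and 5 with no scaling between arrays (3 higher and 2 lower), against 9. In iNSC in vivo against iNSC, 5 were called with no scaling, against 10. The interaction kept 1 with the authors' deposited values, against 4. In iNSC against ESC NPC, 3 were called with the mean of a gene's probes, against 5, and in ESC NPC against NSC 5 with only those groups fitted, against 3. The median difference between the in vivo arrays was 1.25 with the deposited values. With median scaling, directions turned in NSC in vivo against NSC for Psmb10 (-0.38) and for Tapbp, which passed under neither setting (-0.32). With no scaling, directions of values that passed under at least 1 of both settings turned for Psmb10 in ESC NPC against NSC (-0.061), for Tapbp (-0.051) and Psmb10 (-0.048) in iNSC in vivo against iNSC, and for B2m (-0.24), Tapbp (-0.68) and Psmb10 (-0.74) in NSC in vivo against NSC. The scaling itself shifts all genes, and the cause beyond that was not tested. Leaving out 1 clone gave 2 to 3 calls in iNSC against NSC, 2 to 3 in ESC NPC against NSC, 4 to 5 in iNSC against ESC NPC, 6 to 8 in iNSC against MEF, 5 in ESC NPC against ESC, 10 in iNSC in vivo, 9 in NSC in vivo and 4 to 6 in the interaction. The 8 calls in iNSC against MEF and the 6 in the interaction came without iNSC clone 1. With the replicate block the calls stayed at 2, 3 and 5 in the comparisons among clones. Over single genes and alternatives, 1080 values kept direction and side of the threshold, 38 fell short of it, 24 newly passed it, 7 turned with a call on at least 1 side, and 25 turned with no call on either side. Over all genes, the interaction called 3011, against 1797 with median scaling and 1778 with no scaling. The share of called genes that were higher was 48.3% in ESC NPC against NSC and 32.3% with median scaling, 52.2% and 65.6% in iNSC against ESC NPC, 56.1% and 66.2% in iNSC against MEF, and 49.6% and 39.6% in ESC NPC against ESC. With no scaling it was 26.6%, 66.9%, 52.8% and 32.1% in those, and 37.9% in iNSC against NSC, against 52.1%.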

Other observations

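Cd274, which encodes the checkpoint ligand PD-L1, was higher in both in vivo samples, by 5.27 ± 0.22 (log2, SE; limma adjusted p = 3.91e-08) in iNSC in vivo and 3.25 ± 0.22 (adjusted p = 1.04e-06) in NSC in vivo, with 1.22 or more under each scaling. Nectin2, a ligand of natural killer cell receptors, was at least 2.12-fold and 1.95-fold lower. Pdcd1lg2, the gene of PD-L2, was detected in iNSC in vivo, at least 3.81-fold higher, and in neither NSC in vivo nor NSC. The immune markers of the in vivo arrays moved with these values, and their part was not tested.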
